A study of Mus musculus with 4 samples.

Results

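The genes described here are 8 that write, maintain or erase DNA methylation or remove a metabolite that inhibits the erasers. They are the methyltransferase genes Dnmt1, Dnmt3a and Dnmt3b, the maintenance cofactor gene Uhrf1, the oxygenase genes Tet1, Tet2 and Tet3, and D2hgdh, which encodes D-2-hydroxyglutarate dehydrogenase. Members were chosen by gene symbol and not by a cut on their values, though with earlier results of these data known. All 8 were found among the 43430 genes of the deposited count table. All 8 were also among the 13281 genes with enough reads to be tested. The RNA came from double-positive (DP) thymocytes, the CD4+CD8+ intermediate stage of T cell development, which had been sorted from C57BL/6 thymus. The knockout (KO) group held 2 mice with the genotype Uqcrfs1fl/fl; CD4-Cre+, in which the floxed gene for the Rieske protein of respiratory complex III is deleted by a Cre recombinase under control of Cd4 sequences, active from about the DP stage. The control group also held 2 mice. Its genotype label is WT, while the series description calls these mice heterozygous littermates, so WT serves here only as the group's name. The sources used here give neither the ages of the mice nor whether the controls carried CD4-Cre. If the controls lacked the transgene, effects of the deletion and of the transgene cannot be told apart.

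DNMT3A and DNMT3B place methyl groups on unmethylated CpG sites. DNMT1 copies the pattern after DNA replication, guided by UHRF1, which binds hemimethylated CpG. TET enzymes oxidise 5-methylcytosine and need 2-oxoglutarate, oxygen and iron. 2-hydroxyglutarate competes with 2-oxoglutarate, and D2HGDH oxidises its D form back, passing electrons towards ubiquinone and so to complex III. In mouse regulatory T cells and haematopoietic stem cells, loss of the Rieske protein is known to raise 2-hydroxyglutarate and DNA methylation. In mouse thymus, combined loss of TET2 and TET3 is known to expand invariant natural killer T (iNKT) cells, and UHRF1 is needed for their development. The comparison of KO with WT asks here whether the transcripts of this machinery differ in the cells from which iNKT cells arise. Transcript counts measure neither DNA methylation nor 2-hydroxyglutarate.

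Reads assigned to genes numbered 30408863 to 34080516 per library. Uqcrfs1, the targeted gene, stood at 15.6 and 18.6 CPM (read counts scaled to the library's total) in the KO libraries, against 61.4 and 57.2 CPM in the WT libraries. The DP markers Cd8a and Rag1 were abundant in every library. Cd8a stood at 3002 and 2953 CPM in KO replicates 1 and 2, against 3174 and 3225 CPM in WT replicates 1 and 2. Rag1 ranged from 5477 to 6595 CPM. Of 10 DP markers, 5 lay above and 5 below 0 in log2 change, KO minus WT, and 0 passed the test. Both KO libraries lay below both WT libraries for 3 of the 10 (Cd3e, Cd8a and Cd8b1) and above them for 0. Over all tested genes these shares were 20.1% and 20.4%. No labelled batch was given. WT replicate 1 stood apart in genes of DNA replication (values below) and had the lowest share of uniquely aligned reads outside annotated exons, 17.2%, against 18.6% in WT replicate 2 and 20.6% and 19.9% in KO replicates 1 and 2. KO replicate 2 stood apart in some rare transcripts of other cells. The myeloid gene Lyz2 was at 0.499 and 5.36 CPM in KO replicates 1 and 2, against 0.487 and 0.231 CPM in WT replicates 1 and 2. The myeloid list as a whole summed to 74.3 and 79.8 CPM in the KO libraries and to 78.3 CPM in each WT library. Cst3, which many cell types express, made up 50.8 to 60.6 CPM of each sum. Without it the other 9 genes summed to 17.8 and 29.0 CPM in KO replicates 1 and 2, against 19.3 and 17.7 CPM in WT replicates 1 and 2, so the list was highest in KO replicate 2. Not every gene followed that sum. Like Lyz2, the genes Csf1r, Itgax, Adgre1, Itgam, Mpeg1 and Tyrobp were highest in KO replicate 2, but Cd68 and Fcer1g were not, and Cst3 was lowest there. Of the markers of CD4-CD8- thymocytes, the stage before DP, 8 of 9 tested genes lay above 0 in log2 change, KO minus WT, with a median of 0.28 and 0 passing the test. Dtx1, a Notch target, stood at 18.4 and 25.3 CPM in KO replicates 1 and 2, against 11.0 and 11.2 CPM in WT replicates 1 and 2. The summed level of that list was 928 and 1008 CPM in the KO libraries and 872 and 933 CPM in the WT libraries. Bcl11b alone made up 765 and 795 CPM of these sums in KO and 733 and 793 CPM in WT. The sums therefore mostly reflect that gene. Both KO libraries lay above both WT libraries for 4 of the 9 tested genes and below them for 0. Over all tested genes these shares were 20.4% and 20.1%. Whether these differences between libraries bear on the members was not tested, but each member's value is given below without each library.

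Per kilobase of annotated exon, Uhrf1 and Dnmt1 were the most abundant members. Uhrf1 averaged 83.6 ± 3.83 CPM per kb in KO and 88.6 ± 10.1 in WT, and Dnmt1 71.4 ± 2.5 in KO and 72.6 ± 5.65 in WT (SD, n = 2 each). Tet3 followed at 14.3 ± 0.628 CPM per kb in KO and 13.0 ± 0.667 in WT, and Dnmt3a at 11.7 ± 0.598 in KO and 11.2 ± 0.267 in WT. D2hgdh stood at 5.62 ± 0.277 CPM per kb in KO and 5.93 ± 0.0706 in WT. Tet1 was at 2.37 ± 0.168 and Tet2 at 1.99 ± 0.0364 CPM per kb in KO, against 2.19 ± 0.313 and 1.95 ± 0.159 in WT. Dnmt3b came last, at 0.724 ± 0.0979 CPM per kb in KO and 0.598 ± 0.0153 in WT. On this length Tet1 lay above Tet2 within each library. With the longest coding transcript as the length Tet2 was the higher of them in each library. It then stood at 3.66 ± 0.0669 CPM per kb in KO and 3.58 ± 0.293 in WT, against 2.54 ± 0.180 and 2.35 ± 0.337 for Tet1. Their order thus depends on the length used and is not resolved. On the longest transcript Tet3 lay above Dnmt3a within each library, though their ranges over the libraries overlapped.

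Each enzyme family was dominated by a single gene in these cells. Dnmt1 made up 85.2% and 85.1% of the summed methyltransferase level per kb in KO replicates 1 and 2, against 86.9% and 85.2% in WT replicates 1 and 2. Dnmt3a made up 13.8% and 14.1% in KO and 12.4% and 14.1% in WT, and Dnmt3b stayed under 1% in every library. Of the TET level, Tet3 made up 75.5% and 77.8% in KO, against 76.7% and 75.1% in WT. The shares of Dnmt1 and Tet3 overlapped between the groups. These shares were not tested, since an exact two-sided permutation test with 2 samples a group cannot give a p under 0.333.

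**Figure D1:**
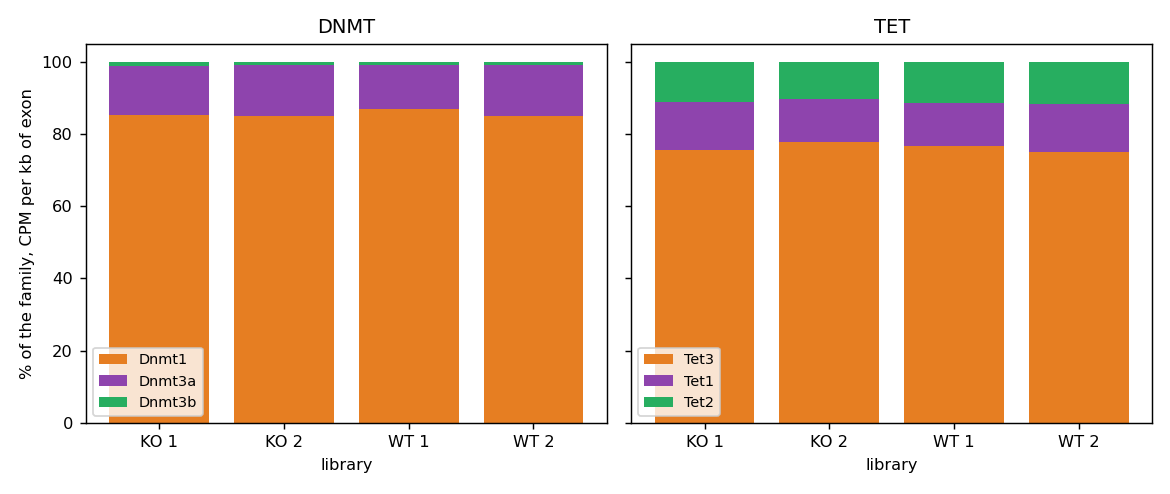
Share of each gene (y axis, percent) in the summed CPM per kb of exon of its family, in the 4 libraries (x axis), for the methyltransferases (DNMT) and the TET genes. Dnmt1 and Tet3 hold most of their families in each KO and WT library.

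Dnmt1 and Uhrf1, which together maintain methylation through replication, did not differ between the groups beyond the spread of the libraries. Dnmt1 (ENSMUSG00000004099, chromosome 9, 20907206 to 20959888, minus strand, mm10) stood at 513 and 539.5 CPM in KO replicates 1 and 2, against 565 and 506 CPM in WT replicates 1 and 2. Uhrf1 (ENSMUSG00000001228, chromosome 17, 56303321 to 56323486, plus strand) stood at 344 and 367 CPM in KO, against 408 and 347 CPM in WT. For both genes WT replicate 1 was the highest library, and WT replicate 2 lay near the KO libraries, so the groups overlapped. The log2 change, KO minus WT, was -0.02 for Dnmt1 (SE 0.06, 95% interval -0.16 to 0.11, adjusted p = 0.927 in edgeR's quasi-likelihood test). For Uhrf1 it was -0.09 (SE 0.08, 95% interval -0.26 to 0.09, edgeR adjusted p = 0.777). The sign rested on WT replicate 1. Without that library the changes were 0.05 for Dnmt1 and 0.03 for Uhrf1, and with it as the sole WT library, without WT replicate 2, they were -0.11 and -0.20 (edgeR adjusted p = 0.237 and 0.0547). Without KO replicate 1 the change of Dnmt1 was 0.01.

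**Figure D2:**
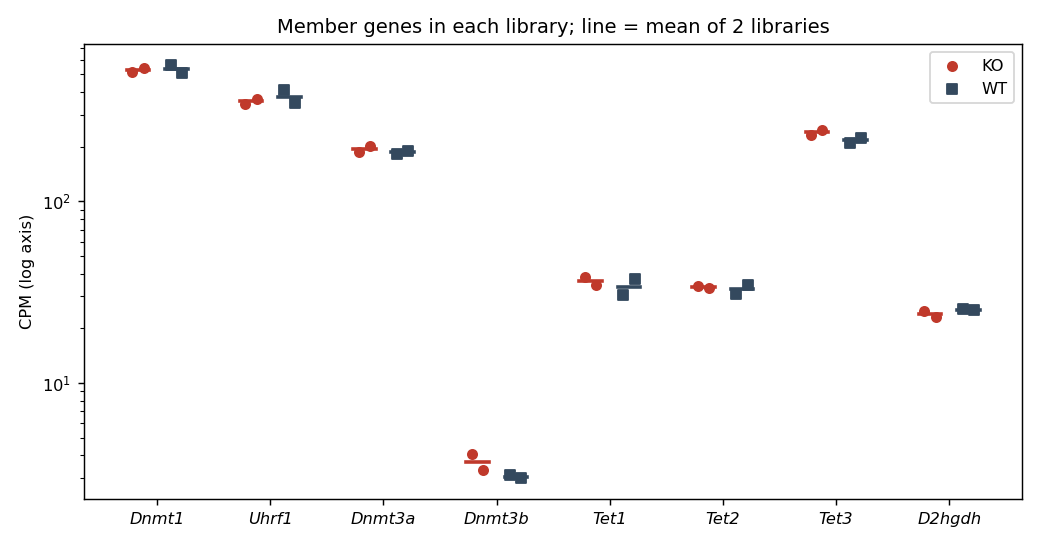
Level of each member in CPM (y axis, log scale) in KO libraries (circles) and WT libraries (squares), with the mean of each group of 2 as a line. Levels run from about 3 CPM for Dnmt3b to 527 CPM for Dnmt1 in KO, and the groups lie close together for each gene.

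Like Dnmt1 and Uhrf1, most genes of a list for DNA replication and cell division were highest in WT replicate 1. WT replicate 1 was the highest library for 20 of the 22 genes of that list, the exceptions being Ccne2 and Gins2, against 30.4% of all tested genes. Mcm5, a subunit of the replicative helicase, stood at 203 and 215 CPM in KO replicates 1 and 2, against 250.4 and 205 CPM in WT replicates 1 and 2. Pcna, the sliding clamp that recruits DNMT1 to replication forks, stood at 306 and 313 CPM in KO, against 349.7 and 302 CPM in WT. Around each gene's own mean over the 4 libraries, WT replicate 1 lay 0.16 higher for Uhrf1, 0.09 for Dnmt1 and, as a median, 0.15 for the 22 replication genes (log2). The ratio of Uhrf1 to Mcm5 was 1.69 and 1.71 in KO and 1.63 and 1.69 in WT (CPM over CPM). Mcm5 was chosen after values were seen, so this ratio describes that pair only and not the list. The median log2 change of the replication list was -0.09 with all libraries, 0.05 without WT replicate 1 and -0.19 without WT replicate 2, and 0 of the 22 genes passed edgeR's adjusted threshold with all libraries. These 4 libraries are too few for a correlation.

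**Figure D3:**
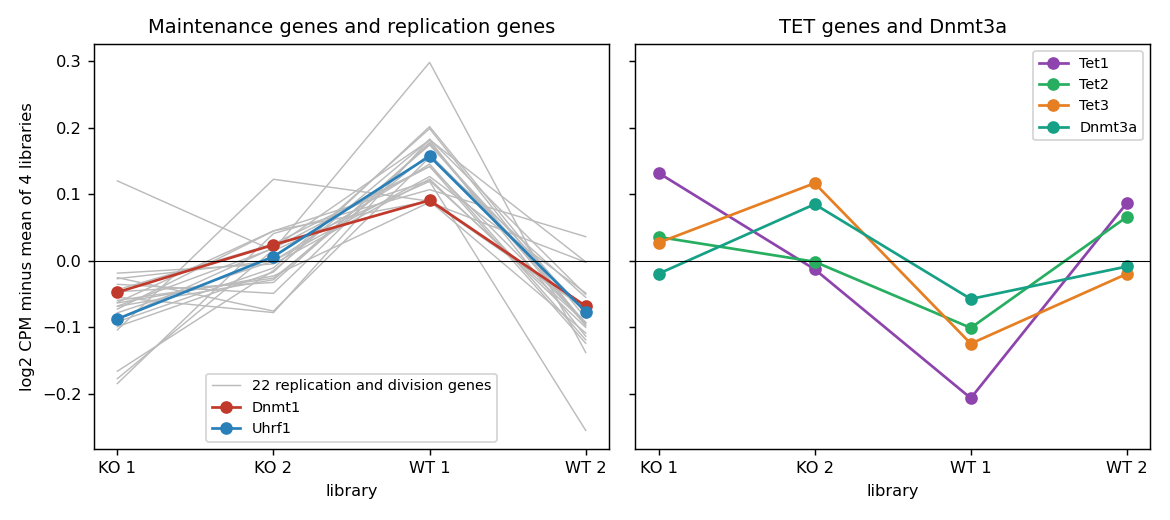
Log2 CPM of each gene minus its own mean over the 4 libraries (y axis), by library (x axis), joined by lines to follow a gene. On the left, Dnmt1, Uhrf1 and 20 of 22 replication and division genes (grey) are highest in WT replicate 1. On the right, Tet1, Tet2, Tet3 and Dnmt3a are lowest there.

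E2F transcription factors drive many replication genes at the start of S phase and bind near the letters TTTCCCGC, TTTCGCGC, TTTGCCGC or TTTGGCGC. The 250 bases before each annotated start were searched for these 4 forms on both strands, counting overlapping matches, in the RefSeq promoter table (GRCm38.p6, the assembly of mm10). All 8 members had entries, with 13 starts. Matches were found for Dnmt1 and Uhrf1, at 1 start each, and for none of the 11 other starts. Of all 32851 windows, 1.86% held a match, as did 2.16% of the 27025 genes. For the replication and division list a match was held by 5 of 18 windows and 5 of 17 genes with an entry. Median CpG counts were 17 for the member windows, 19 for the list and 6 for all windows. No background matched for CpG was taken. The matching windows of members are printed here with the matches in capitals. The window of Mcm5, chosen after its match was seen, stands beside them. Whether E2F factors bear on the levels of these genes was not tested. The Dnmt1 window is chr9:20952624-20952873 on the minus strand, and its match begins 219 bases before the annotated start at 20952623. That start lies downstream of the other Dnmt1 starts, at 20959888 and 20952979, so counted from those the window lies inside the gene. The Uhrf1 window is chr17:56304063-56304312 on the plus strand, and its match begins 185 bases before the annotated start at 56304313. It likewise lies downstream of the other Uhrf1 start, at 56303337. The Mcm5 window is chr8:75109259-75109508 on the plus strand and holds 2 overlapping matches, the second on the opposite strand.
Dnmt1: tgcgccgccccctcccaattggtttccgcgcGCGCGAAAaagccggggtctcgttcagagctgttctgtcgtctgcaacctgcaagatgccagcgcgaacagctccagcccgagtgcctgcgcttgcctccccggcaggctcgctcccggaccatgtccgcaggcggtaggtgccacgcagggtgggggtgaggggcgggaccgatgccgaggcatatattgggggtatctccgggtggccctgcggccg
Uhrf1: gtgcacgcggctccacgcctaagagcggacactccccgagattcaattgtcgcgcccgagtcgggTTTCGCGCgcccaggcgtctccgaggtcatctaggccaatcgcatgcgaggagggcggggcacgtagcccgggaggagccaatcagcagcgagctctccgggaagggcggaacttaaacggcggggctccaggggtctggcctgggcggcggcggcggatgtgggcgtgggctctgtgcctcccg
Mcm5: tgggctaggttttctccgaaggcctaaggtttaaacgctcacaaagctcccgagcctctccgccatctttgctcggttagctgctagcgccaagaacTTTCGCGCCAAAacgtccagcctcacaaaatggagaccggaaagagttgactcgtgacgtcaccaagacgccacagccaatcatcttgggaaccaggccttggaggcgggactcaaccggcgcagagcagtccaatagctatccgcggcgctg
A match describes letters only, not binding, and counts per gene do not show which start was used. The matching windows were also rich in CpG, with 26 sites for Dnmt1 and 30 for Uhrf1, against 2 and 7 at the other Dnmt1 starts, 10 at the other Uhrf1 start and a median of 6 over all windows. Tet2 had the most of any member start, with 51.

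The de novo methyltransferase genes differed widely in level and neither passed the test. Dnmt3a (ENSMUSG00000020661, chromosome 12, 3806007 to 3914443, plus strand) stood at 188 and 202 CPM in KO replicates 1 and 2, against 183 and 189 CPM in WT replicates 1 and 2. KO replicate 2 was the highest library, and KO replicate 1 lay below WT replicate 2, so the groups overlapped. The log2 change was 0.07 (SE 0.05, 95% interval -0.06 to 0.19, edgeR adjusted p = 0.747), and 0.01 to 0.12 with each library left out. Dnmt3b (ENSMUSG00000027478, chromosome 2, 153649450 to 153687730, plus strand) rested on 138 and 106 reads in KO and on 102 and 91 reads in WT, or 4.05 and 3.34 CPM in KO against 3.11 and 3.0 CPM in WT. Both KO libraries lay above both WT libraries, with KO replicate 1 well above the rest. Its log2 change was the largest of the members and the least precise, 0.28 (SE 0.20, 95% interval -0.19 to 0.74, edgeR adjusted p = 0.721), and 0.13 without KO replicate 1. Dnmt3l, a catalytically inactive partner of the de novo enzymes, and the germline enzyme gene Dnmt3c had 0 reads in all libraries, where 3 counts, the limit that a count of 0 allows, correspond to 0.0880 to 0.0987 CPM per library for counting error alone. Exons of Dnmt3a share 133 bases with the antisense gene Dnmt3aos, which was listed at 0 counts in each library, and the sources used here do not give the strand setting of the counting.

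Tet3, the main TET gene here, had the smallest unadjusted p of the 8 members but did not pass the test over all genes. Tet3 (ENSMUSG00000034832, chromosome 6, 83362373 to 83459084, minus strand) stood at 232 and 247 CPM in KO replicates 1 and 2, against 209 and 225 CPM in WT replicates 1 and 2. Both KO libraries lay above both WT libraries, but the gap between the groups was smaller than the distance between replicates of either group. The group means were 239 ± 10.5 CPM in KO and 217 ± 11.1 CPM in WT (SD, n = 2 each), a log2 change of 0.14 (SE 0.06, 95% interval 0.02 to 0.27, unadjusted p = 0.0313, edgeR adjusted p = 0.560). With each library left out the change was 0.09 to 0.19. In the authors' deposited table Tet3 has a log2 fold change of 0.14 and an adjusted p of 0.558, and none of the 8 members is marked as higher or lower. An absolute log2 change larger than that of Tet3 was seen for 30.8% of all tested genes.

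Tet1 and Tet2 drew far fewer reads than Tet3 and overlapped between the groups. Tet1 (ENSMUSG00000047146, chromosome 10, 62804570 to 62899118, minus strand) stood at 38.4 and 34.7 CPM in KO replicates 1 and 2, against 30.4 and 37.2 CPM in WT replicates 1 and 2. Tet2 (ENSMUSG00000040943, chromosome 3, 133463679 to 133544390, minus strand) stood at 34.1 and 33.2 CPM in KO, against 31.0 and 34.8 CPM in WT. In both cases WT replicate 1 was the lowest library and WT replicate 2 lay among the KO libraries or above them. The log2 changes were 0.12 for Tet1 (SE 0.10, 95% interval -0.11 to 0.34, edgeR adjusted p = 0.770) and 0.03 for Tet2 (SE 0.08, 95% interval -0.14 to 0.21, edgeR adjusted p = 0.924). Their sign turned without WT replicate 1, to -0.03 for Tet1 and -0.05 for Tet2. Dnmt3a and all 3 TET genes had their lowest value in WT replicate 1, the library in which Dnmt1, Uhrf1 and D2hgdh had their highest. That library was the lowest of the 4 for 30.6% of all tested genes.
Tet1 had the widest range over the libraries of the members with a mean of at least 5 CPM, 0.34 on the log2 scale. The tested genes nearest to it, by the root mean square distance of centred log2 CPM over the 4 libraries, were 4833418N02Rik, Aste1 and Nwd1, at distances of 0.0136, 0.0145 and 0.0153.

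D2hgdh, the enzyme gene for removal of D-2-hydroxyglutarate, was slightly lower in both KO libraries without passing the test. D2hgdh (ENSMUSG00000073609, chromosome 1, 93824909 to 93852348, plus strand) stood at 24.9 and 23.2 CPM in KO replicates 1 and 2, against 25.6 and 25.2 CPM in WT replicates 1 and 2. The groups did not overlap, but KO replicate 1 lay close to WT replicate 2. The log2 change was -0.08 (SE 0.08, 95% interval -0.25 to 0.10, edgeR adjusted p = 0.809), and -0.13 to -0.03 with each library left out.

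Of the 8 members 0 passed an adjusted p under 0.05 in edgeR's quasi-likelihood test, against 0.0226% of all tested genes (3 of 13281), with 0.00753% higher and 0.0151% lower in KO. At an unadjusted p under 0.05 there was 1 member, Tet3, against 8.4% of all tested genes, 4.4% higher and 4.01% lower in KO. DESeq2 and edgeR's likelihood ratio test called 0 members as well. The groups did not overlap for 3 members, Dnmt3b and Tet3 with KO above and D2hgdh with KO below, against 40.5% of all tested genes, a share near the background. The median log2 change of the members was 0.05, with 5 above and 3 below 0, beside a median of 0.00 over all tested genes. With each library left out the members' median was 0.03 to 0.10, the highest value coming without WT replicate 2. The 95% intervals, as KO over WT, lay between 0.836-fold and 1.27-fold for all members but Dnmt3b, whose interval reached 1.67-fold. A p that misses the threshold does not show equal levels. With 2 mice a group the data remain compatible with changes anywhere within these intervals. In bulk RNA, a change in the transcripts of each cell and a change in the mix of cells cannot be told apart.

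**Figure D4:**
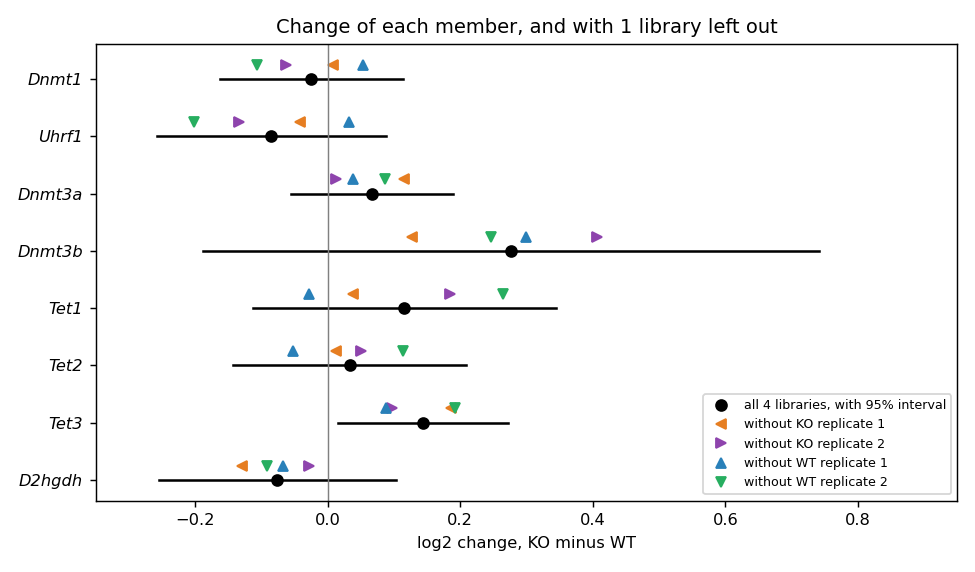
Log2 change of each member, KO minus WT (x axis), as a black circle with its 95% interval from edgeR's quasi-likelihood fit, and above it the value with each library left out (triangles). Every interval but that of Tet3 crosses 0, and the values for Dnmt1, Uhrf1, Tet1 and Tet2 without WT replicate 1 lie across 0 from the value with all libraries.

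The wider machinery was described from lists of related genes, and 0 genes of these lists passed edgeR's adjusted threshold among the 13281 genes tested after the filter on low counts. Without that filter 2 passed, Tyms (values below) and the imprinted gene H19, in a fit that called 191 genes in all, against 3 with the filter. Methyl-CpG readers, the proteins that bind methylated DNA, had 6 of 8 tested genes above 0 and a median log2 change of 0.09. Both KO libraries lay above both WT libraries for 5 of these 8, against 20.4% of all tested genes. Mbd1 stood at 115 and 118 CPM in KO replicates 1 and 2, against 107 and 109 CPM in WT replicates 1 and 2, a log2 change of 0.11 (SE 0.05, edgeR adjusted p = 0.616). Zbtb33, which encodes the reader Kaiso, had a log2 change of 0.16 (SE 0.08), and Zbtb38, a related zinc finger gene, also 0.16 (SE 0.08). Without WT replicate 1 the change of Zbtb33 was 0.07 and the median of the readers 0.05.
Cofactors of the methyltransferases and of UHRF1 had 4 of 9 tested genes above 0 and a median of -0.01, which was 0.03 without WT replicate 1. Lig1, the replicative DNA ligase gene, had a log2 change of -0.14 (SE 0.09), and -0.27 with edgeR adjusted p = 0.0273 without WT replicate 2, but -0.01 without WT replicate 1. Ehmt2, a histone H3 lysine methyltransferase gene, was at -0.07 (SE 0.05) and Usp7, which encodes a deubiquitinase of UHRF1 and DNMT1, at 0.06 (SE 0.05).
TET partners and genes of base excision repair had 8 of 17 tested genes above 0 and a median of -0.02, which was 0.01 without WT replicate 1 and 0.02 without KO replicate 2. The repair scaffold gene Xrcc1 was at -0.12 (SE 0.06) and Thyn1 at -0.13 (SE 0.09), while Gadd45g, a stress-induced gene, rested on 16 and 12 reads in KO and 27 and 22 reads in WT. Tdg, the glycosylase gene that acts after TET oxidation, stood at 35.1 and 34.7 CPM in KO and 35.9 and 37.8 CPM in WT.

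Metabolic genes around 2-hydroxyglutarate and the methyl donor likewise gave no call among the 13281 genes tested after the filter on low counts. Among genes that make or remove 2-hydroxyglutarate or carry its electrons, 8 of 10 tested genes lay below 0, with a median log2 change of -0.04, and the median was 0.02 without WT replicate 1. Etfb, a subunit gene of the electron transfer flavoprotein that accepts electrons from D2HGDH, stood at 21.7 and 22.2 CPM in KO replicates 1 and 2, against 26.7 and 22.8 CPM in WT replicates 1 and 2, a log2 change of -0.18 (SE 0.09, edgeR adjusted p = 0.637), or -0.06 without WT replicate 1. Its partner Etfa was at -0.12 (SE 0.08), and at 0.00 without WT replicate 1, and the malate dehydrogenase gene Mdh2 at -0.06 (SE 0.05), and at -0.02 without WT replicate 1. Adhfe1, whose enzyme forms D-2-hydroxyglutarate, had 3 and 0 reads in KO and 1 and 0 reads in WT.
Genes that supply or use 2-oxoglutarate, succinate and fumarate had 13 of 22 below 0 and a median of -0.02, which was 0.01 without WT replicate 1. That library was the highest for 15 of the 22, against 30.4% of all tested genes. Both KO libraries lay below both WT libraries for 8 of the 22, against 20.1% of all tested genes, among them the succinyl-CoA ligase gene Suclg1 at -0.14 (SE 0.06) and the complex II subunit genes Sdhc at -0.14 (SE 0.06) and Sdhb at -0.12 (SE 0.06).
Genes of the S-adenosylmethionine and folate cycles had 13 of 20 above 0 and a median of 0.06, which was 0.00 without WT replicate 2 and 0.02 without KO replicate 2. Mat2a, which encodes the enzyme that makes S-adenosylmethionine, the methyl donor, stood at 308 and 302 CPM in KO, against 283 and 293 CPM in WT, a log2 change of 0.08 (SE 0.05, edgeR adjusted p = 0.657). Tyms, the thymidylate synthase gene of the folate cycle, stood at 97.5 and 100.2 CPM in KO, against 124 and 109 CPM in WT (log2 change -0.23, SE 0.07, edgeR adjusted p = 0.497), and again had its highest value in WT replicate 1. Without WT replicate 2 edgeR's adjusted p was 0.0159 for Tyms, and without a filter on low counts it was 0.0128. In the replication list the genes with the smallest p were E2f1 at -0.18 (SE 0.09), Ccnb1 at -0.14 (SE 0.08) and Ccne1 at -0.14 (SE 0.08), and Ccnb1 had edgeR adjusted p = 0.0322 without WT replicate 2. Without WT replicate 1 the changes were -0.09 for E2f1 and -0.02 for Ccnb1, and without KO replicate 1 that of Ccne1 was -0.03.

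**Figure D5:**
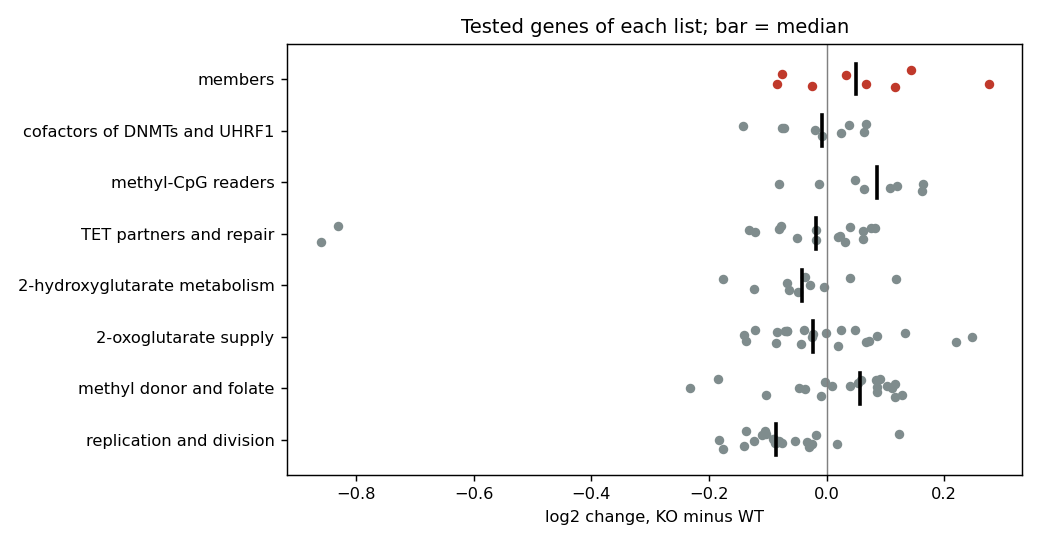
Log2 change, KO minus WT (x axis), of every tested gene in 8 lists (rows), with the median of each list as a black bar and the members in red at the top. Medians lie between -0.09 for replication and division genes and 0.09 for methyl-CpG readers.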

How the data were processed

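RNA-seq had been done on sorted DP thymocytes of 2 KO and 2 WT mice, grouped and numbered by the sample titles. The submitters' processing notes name Trimmomatic 0.33, STAR 2.5.2, HTSeq, edgeR and the mm10 build. For HTSeq, the sources used here give no mode, strand setting or annotation. The deposited values are raw counts per gene. Lines naming no gene were left out. They came to 17.2% to 20.6% of uniquely aligned reads outside annotated exons and 0.865% to 0.891% ambiguous reads, while 23.2% to 24.7% of aligned reads had several alignments. The authors' deposited comparison holds CPM, log2 fold changes, p-values and a likelihood ratio score, and was used only where named.

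Counts were tested with edgeR 4.0.16 in R 4.3.3 (filterByExpr with minimum count 10 and minimum total 15, TMM, robust quasi-likelihood F test, group as the only term) over 13281 genes, with Benjamini-Hochberg adjustment and a threshold of 0.05. Positive log2 changes mean higher in KO. SE is the absolute log2 change over the square root of F, and 95% intervals use the test's degrees of freedom. CPM used TMM-scaled library sizes (factors 0.999 to 1.00). Lengths per kb are unions of GENCODE M21 exons. No libraries were identical: the chi-square over its degrees of freedom came to 4.82 between KO libraries and 9.00 between WT libraries, against 5.46 to 12.1 between groups. P-values and intervals rest on the spread between these mice, with each gene's variance drawn towards that of other genes (median prior degrees of freedom 6.78). They are not a gene's own spread alone. DESeq2 1.42.0 was an alternative. The text names Uqcrfs1, the members, the 3 tested genes of smallest p in each list other than cell markers, marker genes, and the 3 genes nearest to the member of widest range. Other genes (Mcm5, Pcna, Tdg, Adhfe1, Dnmt3l, Dnmt3c, Dnmt3aos, Ccne2, Gins2, Ddx4, Mael, Sycp3) were chosen after values were seen. The members and the 15 other lists were chosen with earlier results of these data known. A gene that the rule names is not reported here. 11 alternatives were run, and the longest coding transcript as length and the myeloid sum without Cst3 were added after seeing the data.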

Additional observations from a re-analysis of the deposited data

How the results depend on the processing

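No member passed the threshold under any of the 11 alternatives, and the smallest adjusted p of a member over them was 0.0547. Over all genes, 3 calls became 191 without a filter on low counts, 24 with DESeq2, 101 with edgeR's likelihood ratio test and 27 with the replicate number as a block, and 41 to 365 with each library left out, a fit that takes the spread of a lone library from the other pair. For genes of the related lists outside the cell markers, 0 calls became 2 without the filter and 0 to 11 with each library left out, the 11 coming without WT replicate 2. Same-numbered libraries correlated at r = 0.0912 in their deviations from the group means (across genes), so the numbers were not taken to pair mice, and the block called 0 members. The sign turned with a library left out for Tet1 (-0.028 to 0.26), Tet2 (-0.052 to 0.11), Dnmt1 (-0.11 to 0.053), Uhrf1 (-0.20 to 0.032), Etfa (-0.25 to 0.0028), Mcm5 (-0.26 to 0.02), Pcna (-0.18 to 0.03) and Dazl (-0.57 to 2.05). The cause was not tested. Levels per kb depend on the length used, and 2 mice a group limit the precision for each gene, reads most for Dnmt3b.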

Other observations

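Genes that DNA methylation is known to silence were nearly silent in both groups. With so few reads in WT, a fall in KO could not be seen. These genes therefore cannot show whether silencing became stronger. Of 16 germline genes with methylated promoters in mouse somatic cells, among them Ddx4, Mael and Sycp3, 9 had 0 reads in all 4 libraries and 6 had a total of 1 to 20 reads. Dazl, a germ cell RNA-binding protein gene, was the only one with enough reads for the test, with 14 and 5 reads in KO replicates 1 and 2, against 13 and 2 reads in WT replicates 1 and 2, and the groups overlapped (log2 change 0.28, SE 0.81, edgeR adjusted p = 0.939).

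Of 20 imprinted genes, 19 were in the count table and 7 had enough reads for the test, with 2 above and 5 below 0. Such genes are expressed from a single parental allele in at least some tissues. Counts per gene do not show which allele was read. Gnas, the stimulatory G protein gene, had a log2 change of -0.09 (SE 0.06), or -0.03 without WT replicate 1, and Zrsr1 of -0.18 (SE 0.11). H19, a maternally expressed non-coding RNA, had 16 and 84 reads in KO replicates 1 and 2, against 5 and 12 reads in WT replicates 1 and 2, a log2 change of 2.5 (SE 0.91, edgeR adjusted p = 0.560). The change was 0.78 without KO replicate 2 and 3.27 without KO replicate 1. H19 was called without a filter on low counts (edgeR adjusted p = 2.92e-04), a setting that called 191 genes against 3 with the filter. DESeq2 and edgeR's likelihood ratio test did not call it (adjusted p = 0.277 and 0.210). KO replicate 2 also held the most reads of Lyz2, 170, against 17 in KO replicate 1 and 16 and 7 in the WT libraries. The part of other cells in the H19 reads was not tested.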
